A study of Homo sapiens with 4 samples.

Results

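Serine synthesis and folate-dependent carbon transfer were followed through 9 enzyme transcripts, chosen by gene symbol as PHGDH, PSAT1, PSPH, SHMT1, SHMT2, MTHFD1, MTHFD2, MTHFD1L and ALDH1L2. All 9 were found among the 16057 rows of the deposited table. The data are RNA sequencing of total RNA from MM.1S, an established human multiple myeloma line. Cells were collected after 26 h with 350 nM JG342, an allosteric inhibitor of the HSP70 chaperones, or with its solvent control DMSO. Each treatment has 2 biological replicates, numbered 1 and 2, so every comparison rests on 4 libraries from a single cell line.

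Serine is made from the glycolytic intermediate 3-phosphoglycerate by PHGDH, PSAT1 and PSPH acting in sequence in the cytosol. Serine hydroxymethyltransferases then pass a carbon from serine to tetrahydrofolate, with glycine as the second product. The carbon can be carried along parallel folate routes. In mitochondria SHMT2, MTHFD2 and MTHFD1L lead from serine to formate, and ALDH1L2 oxidises 10-formyltetrahydrofolate to carbon dioxide. In the cytosol SHMT1 and the trifunctional MTHFD1 interconvert the same intermediates, which feed purine, thymidylate and methionine synthesis. Genes of serine synthesis and of the mitochondrial route are known targets of the transcription factor ATF4. Myeloma cells, as antibody-secreting plasma cells, have a high demand for amino acids.

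Values are TPM, a transcript abundance scaled by transcript length and by the library total, so levels can be compared between genes. Pairs of values are given in the order replicate 1, replicate 2. The 4 libraries summed to between 994463 and 994718 TPM, and TPM does not record the number of reads, so the depth of each library is unknown and no counting intervals are given. All 6 plasma cell markers (SDC1, CD38, TNFRSF17, PRDM1, XBP1 and IRF4) were present, at 22.0 to 1274 TPM. Of 15 markers of B cells, T cells, monocytes, fibroblasts and epithelium, 13 were in the table and 4 had a mean of at least 1 TPM (CD3E, LYZ, KRT8 and KRT18), with LYZ highest at up to 46.2 TPM. The summed level of those 13 ran from 48.0 to 60.3 TPM with DMSO and from 51.4 to 56.3 TPM with JG342.

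After JG342, 7 of the 9 transcripts were higher, 1 was lower and 1 did not pass the test. The 7 that rose were all 3 serine synthesis enzymes and all 4 mitochondrial enzymes. The cytosolic MTHFD1 fell, and the cytosolic SHMT1 overlapped between treatments. Changes were tested with limma on log2(TPM + 1) over the 12042 genes averaging 1 TPM or more, at a Benjamini-Hochberg adjusted p under 0.05. Over all fitted genes 18.4% passed, 10.8% as higher and 7.62% as lower. The median log2 fold change was 1.36 over the 9 members and 0.03 over all fitted genes. The 2 JG342 libraries lay above both DMSO libraries for 7 members and below both for 1, whereas 34% of fitted genes lay wholly above and 28.2% wholly below. These members include genes already known from earlier work on these data to respond, so the counts describe the list and are not evidence independent of its choice.

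**Figure D1:**
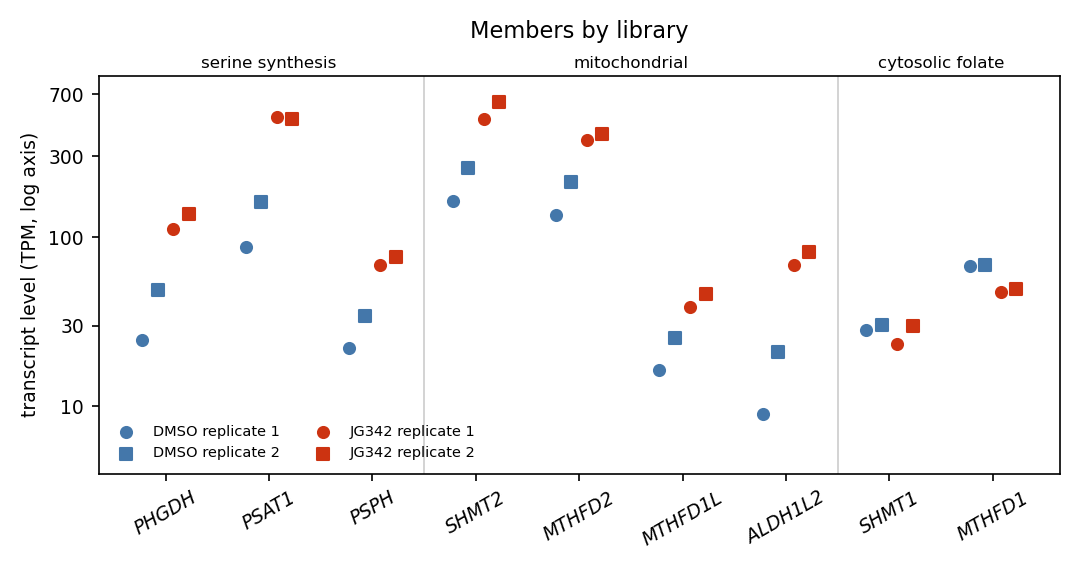
TPM on a log axis of each of the 9 transcripts in the 4 libraries, with DMSO in blue, JG342 in red, circles for replicate 1 and squares for replicate 2. The 7 transcripts of serine synthesis and the mitochondrial route have both red points above both blue points, SHMT1 overlaps, and MTHFD1 has both red points below.

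PHGDH (NM_006623), which oxidises 3-phosphoglycerate and commits it to serine, stood at 24.6 and 48.4 TPM with DMSO and at 112 and 137 TPM with JG342. The treatments did not overlap, but the DMSO libraries differed from each other 1.97-fold. On the log2(TPM + 1) scale PHGDH rose by 1.81 ± 0.25 (SE), with a limma adjusted p of 0.00264. The call did not hold when genes with low values were kept in the fit (limma adjusted p 0.0550).

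PSAT1 (NM_021154), the aminotransferase that takes nitrogen from glutamate to form phosphoserine, had the highest level of the 3 serine synthesis enzymes. It measured 87.6 and 161 TPM with DMSO and 511 and 502 TPM with JG342. Its JG342 libraries differed by less than 2% in level (ratio 0.983), while the DMSO libraries differed 1.84-fold. The lowest JG342 library was 3.12 times the highest DMSO library, and the log2 change was 2.08 ± 0.22 (SE; limma adjusted p 0.000755). A processed pseudogene, PSAT1P3, matches 61.6% of the PSAT1 transcript at 95.3% identity, so a part of its reads could be split between them.

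PSPH (NM_004577), the phosphatase that releases free serine, was measured at 22.1 and 34.1 TPM with DMSO and at 68.0 and 75.95 TPM with JG342. Both JG342 libraries were about alike and at least 1.99 times each DMSO library. The log2 change was 1.36 ± 0.18 (SE; limma adjusted p 0.00214). Together the 3 enzymes summed to 134 and 244 TPM with DMSO and to 690 and 715 TPM with JG342, so the sum was nearly equal in the JG342 libraries and unequal in the DMSO libraries.

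The promoter of PSAT1 is shown because PSAT1 had the largest rise of the serine synthesis enzymes. The stretch is the 120 bases before the RefSeq start on the plus strand of GRCh38.p14, chr9:78297005-78297124, and the capitals mark CCAAT, a box bound by the factor NF-Y.
PSAT1: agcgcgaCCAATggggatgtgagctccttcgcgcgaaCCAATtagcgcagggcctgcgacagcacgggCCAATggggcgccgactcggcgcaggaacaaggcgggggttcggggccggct
The box occurs 3 times in this stretch. Promoter windows of 300 bases, from 250 before to 50 after the start, were found in the RefSeq tables for 6 members (PHGDH, PSAT1, SHMT1, MTHFD1, MTHFD2 and MTHFD1L). PSPH, SHMT2 and ALDH1L2 were not matched. CCAAT on either strand occurred in at least 1 window of each of the 6, rising or not. It occurred in 34.6% of 35116 windows, which is a share of windows and not of genes. MTHFD1L has 4 windows, and not all of them held the box. This motif was chosen after the windows were read.

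SHMT2 (NM_001166356), the mitochondrial serine hydroxymethyltransferase, was the most abundant member under both treatments by its mean. It measured 163 and 256 TPM with DMSO and 501 and 628 TPM with JG342. The groups did not overlap, and replicate 2 was the higher library under both treatments. The log2 change was 1.45 ± 0.19 (SE; limma adjusted p 0.00209).

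MTHFD2 (NM_006636), the mitochondrial dehydrogenase and cyclohydrolase that acts after SHMT2, stood at 134 and 212 TPM with DMSO and at 376 and 410 TPM with JG342. Its lowest JG342 library was 1.77 times its highest DMSO library. The log2 change was 1.21 ± 0.18 (SE; limma adjusted p 0.00328, and 0.0566 with low genes kept in the fit). The end of its transcript, 29.7% of its length, overlaps transcripts of SLC4A5 on the opposite strand. Whether the libraries keep strand is not given in the sources used here, and SLC4A5 itself went from 8.44 and 11.6 TPM to 19.4 and 22.5 TPM, so reads of the shared end cannot be told apart.

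MTHFD1L (NM_001242767), the mitochondrial formate-tetrahydrofolate ligase that releases formate, had values of 16.5 and 25.3 TPM with DMSO and 38.5 and 46.4 TPM with JG342. Of the 7 transcripts that rose it had the smallest change and the narrowest gap, its lowest JG342 library being 1.52 times its highest DMSO library. The log2 change was 1.01 ± 0.19 (SE; limma adjusted p 0.00844, and 0.0755 with low genes kept in the fit).

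ALDH1L2 (NM_001034173), the mitochondrial 10-formyltetrahydrofolate dehydrogenase, was the least abundant member with DMSO, at 8.95 and 20.9 TPM, and reached 68.2 and 82.1 TPM with JG342. Its DMSO libraries differed 2.34-fold, the widest gap of the 9. Even so, the lowest JG342 library was 3.26 times the highest DMSO library. The log2 change of 2.36 ± 0.30 (SE; limma adjusted p 0.00164) was the largest of the 9.

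Promoter stretches of MTHFD2 and MTHFD1L are shown as members of the mitochondrial route with a RefSeq window. The MTHFD2 stretch is 120 bases on the plus strand of GRCh38.p14, chr2:74198442-74198561, again with CCAAT in capitals. The MTHFD1L stretch was chosen because it holds a motif match, and is 30 bases around it on the plus strand, chr6:150866347-150866376. Its capitals mark TGATGCAAT, a form of the composite element that ATF4 binds with C/EBP partners.
MTHFD2: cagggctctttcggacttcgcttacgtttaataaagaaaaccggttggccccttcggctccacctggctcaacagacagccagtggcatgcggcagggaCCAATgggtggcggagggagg
MTHFD1L: ccgccggctcTGATGCAATcgcgccgggcg
The composite element was searched on both strands as TGATGNAA, which occurred in 3.62% of the 35116 windows, and as TGATGCAA, which is contained in it and occurred in 0.866%. Among the 6 members with windows, MTHFD1L alone held either form. Its match lies 129 bases before the start used for the coordinates above, and another of its 4 annotated windows places the same match 24 bases after a start. No match was found in the windows of PHGDH, PSAT1, MTHFD2, SHMT1 or MTHFD1, which says only that these letters are not in these 300 bases. The share of members holding it was the same when the search was lengthened to TGATGNAAT. Which start the cells used was not measured.

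MTHFD1 (NM_005956), the cytosolic trifunctional enzyme that covers the dehydrogenase, cyclohydrolase and ligase steps, moved the other way. It stood at 67.5 and 68.4 TPM with DMSO and at 47.6 and 49.2 TPM with JG342. The libraries of each treatment nearly coincided, and the log2 change was −0.48 ± 0.10 (SE; limma adjusted p 0.0127). The direction held when each library was left out, but the call did not hold without DMSO replicate 1 or without DMSO replicate 2 (limma adjusted p 0.0655 and 0.0875).

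SHMT1 (NM_001281786), the cytosolic serine hydroxymethyltransferase, measured 28.3 and 30.2 TPM with DMSO and 23.4 and 29.7 TPM with JG342. JG342 replicate 2 lay between the DMSO libraries, so the treatments overlapped. The log2 change was −0.15 ± 0.14 (SE; limma adjusted p 0.499) and turned to 0.02 without JG342 replicate 1. Its promoter is shown for comparison with those of PSAT1 and MTHFD2, as 120 bases on the minus strand of GRCh38.p14, chr17:18363564-18363683, with CCAAT or its reverse complement ATTGG in capitals.
SHMT1: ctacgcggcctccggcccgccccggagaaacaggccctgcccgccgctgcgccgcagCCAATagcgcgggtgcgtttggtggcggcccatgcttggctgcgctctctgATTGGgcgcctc
The box was present here as well, in 2 places, beside a transcript whose level did not pass the test.

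**Figure D2:**
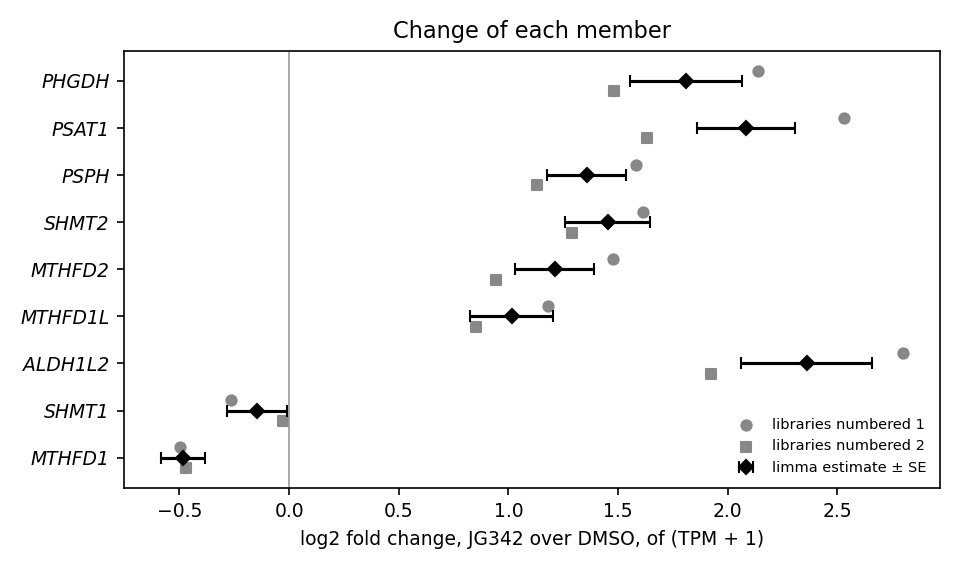
Log2 fold change of (TPM + 1), JG342 over DMSO, for each transcript. Diamonds and bars are the limma estimate and its standard error, grey circles the libraries numbered 1 and grey squares those numbered 2; the change was smaller in the libraries numbered 2 for each of the 7 transcripts that rose.

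The isoenzymes of the mitochondrial and cytosolic routes were compared within each library as a ratio of TPM, which does not depend on the scaling between libraries. The SHMT2 to SHMT1 ratio was 5.75 and 8.47 with DMSO and 21.4 and 21.2 with JG342. The JG342 ratios were nearly equal and both far above the DMSO ratios. Log2 ratios here and below were taken of (TPM + 1), so they differ slightly from the log2 of the printed ratios and can move slightly with scaling. The log2 ratio differed by 1.60 between treatments, with standard deviations of 0.39 for DMSO and 0.0036 for JG342 (n = 2 each, exact permutation test, two-sided p = 0.333). With 2 libraries against 2 the smallest p this exact test can give is 0.333, so the size and the lack of overlap are what these libraries show.

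For the dehydrogenase step, the MTHFD2 to MTHFD1 ratio was 1.99 and 3.10 with DMSO and 7.90 and 8.33 with JG342. The mitochondrial transcript was the more abundant in every library, and the margin was wider in both JG342 libraries. The log2 ratio rose by 1.69, by 1.97 between the libraries numbered 1 and by 1.41 between those numbered 2 (exact permutation p = 0.333).

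For the formate ligase step the order of levels was the reverse, with the cytosolic transcript above the mitochondrial one in every library. The MTHFD1L to MTHFD1 ratio was 0.244 and 0.370 with DMSO and 0.810 and 0.943 with JG342. MTHFD1L thus stayed below MTHFD1 in both JG342 libraries, by a smaller margin than in either DMSO library. The log2 ratio rose by 1.496 (exact permutation p = 0.333). These 2 ratios share MTHFD1 as denominator, and its fall of 0.48 on the log2 scale is part of both.

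ALDH1L1, the cytosolic counterpart of ALDH1L2, was listed at 0.07, 0.07, 0.21 and 0.07 TPM in the DMSO and then the JG342 libraries. It was below the limit for the test, and ALDH1L2 was the only one of this pair with an appreciable level. MTHFD2L, a mitochondrial paralog of MTHFD2, stood at 14.6 and 16.9 TPM with DMSO and at 16.3 and 16.1 TPM with JG342. Unlike MTHFD2 it overlapped between treatments, with a log2 change of 0.04 ± 0.13 (SE; limma adjusted p 0.872) whose sign was reversed by median or quantile scaling.

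**Figure D3:**
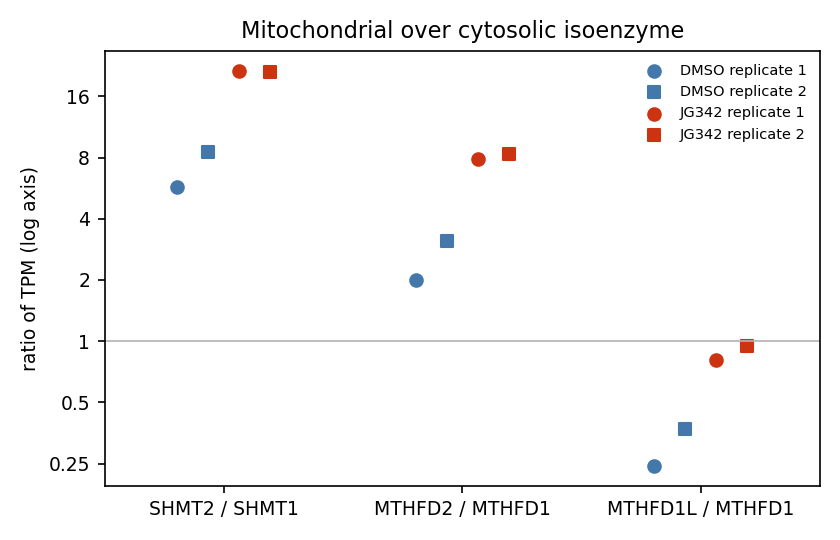
Ratio of TPM between a mitochondrial enzyme and its cytosolic counterpart in each library, on a log axis, with DMSO in blue and JG342 in red. For all 3 ratios both JG342 libraries lie above both DMSO libraries, and the SHMT2 to SHMT1 ratio is 21.4 and 21.2 in the JG342 libraries.

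With DMSO the order of mean levels was SHMT2, MTHFD2, PSAT1, MTHFD1, PHGDH, SHMT1, PSPH, MTHFD1L and ALDH1L2, from 209 to 14.9 TPM. Only PSAT1 and MTHFD1, and MTHFD1 and PHGDH, were neighbours whose libraries did not overlap. With JG342 the order was SHMT2, PSAT1, MTHFD2, PHGDH, ALDH1L2, PSPH, MTHFD1, MTHFD1L and SHMT1, from 564 to 26.5 TPM. Here the libraries of SHMT2 and PSAT1, and of ALDH1L2 and PSPH, overlapped, and the other neighbours did not. MTHFD1 thus held rank 4 with DMSO and rank 7 with JG342.

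The DMSO libraries were not alike for these genes. All 7 transcripts that rose after JG342 had their higher DMSO value in replicate 2, the excess over replicate 1 being 1.54-fold (MTHFD1L) to 2.34-fold (ALDH1L2), a log2 difference of 0.59 to 1.14. A difference in that direction of at least 0.59, the smallest of these 7, was seen for 1.75% of fitted genes, the 7 included. All 7 meet that limit by its choice. The median over all fitted genes was 0.04. SHMT1 and MTHFD1 differed by 0.09 and 0.02. ATF4 (NM_001675), at 420 and 788 TPM with DMSO and 1269 and 1476 TPM with JG342, differed by 0.91 between the DMSO libraries. Between the JG342 libraries the 7 transcripts differed less, by −0.03 (PSAT1) to 0.33 (SHMT2). The log2 change of ALDH1L2 was accordingly 2.80 between libraries numbered 1 and 1.92 between those numbered 2, and that of PSAT1 was 2.53 and 1.63. Without DMSO replicate 1, and equally without DMSO replicate 2, all 7 still passed.

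ATF4 rose by 1.249 ± 0.24 (SE; limma adjusted p 0.0090, and 0.0917 with low genes kept in the fit). MYC (NM_001354870), a further transcription factor known to act on SHMT2 and MTHFD2, fell from 285 and 291 TPM to 181 and 182 TPM, by −0.66 ± 0.09 (limma adjusted p 0.00206). NFE2L2, which encodes NRF2, was 62.0 and 59.3 TPM with DMSO and 82.1 and 71.6 TPM with JG342, and missed the threshold with a log2 difference of 0.33 (limma adjusted p 0.0639).

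The nearest profiles were sought among 9805 other genes averaging 5 TPM or more, by Euclidean distance between the 4 log2(TPM + 1) values after subtraction of each gene's own mean. With 4 values a gene this is a description. Nearest to PHGDH was GPT2, a mitochondrial alanine aminotransferase, at a distance of 0.255, with 12.02 and 27.6 TPM in DMSO and 52.6 and 62.4 TPM in JG342. Nearest to PSAT1 was SNTB1 (0.302) and nearest to ALDH1L2 was TUBE1 (0.169). The asparagine synthetase ASNS was second nearest to both (0.305 and 0.272), at 60.4 and 107 TPM in DMSO and 336 and 429 TPM in JG342. GALM was nearest to MTHFD1L (0.0857), before PYCR1, a mitochondrial enzyme of proline synthesis (0.111). FAM84B was nearest to both PSPH (0.0324) and SHMT2 (0.135), and ADPRM to MTHFD2 (0.126). MTHFD1 lay nearest to EIF5A, a translation factor, at 0.0191. The remaining second neighbours were SERPINI1 for PHGDH (0.29), C6orf226 for PSPH (0.0498) and SHMT2 (0.176), GAB2 for MTHFD2 (0.1385) and RBM28 for MTHFD1 (0.0256).

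Genes listed for folate uptake, retention and reduction did not rise with the members. Of 9 listed, 7 were in the table and fitted, 3 passed as lower and 0 as higher. Beside this list and those below, 10.8% of all fitted genes passed as higher and 7.62% as lower. The median log2 change of the 7 was −0.15. SLC19A1, the reduced folate carrier of the plasma membrane, was 52.8 and 60.3 TPM with DMSO and 29.4 and 33.0 TPM with JG342, and fell by 0.84 on the log2 scale (limma adjusted p 0.00276). GGH, the hydrolase that shortens folate polyglutamates, was 110 and 102 TPM with DMSO and 73.6 and 71.4 TPM with JG342 (log2 change −0.54, limma adjusted p 0.00767). For SLC19A1 and GGH both JG342 libraries lay below both DMSO libraries. The GGH call was lost without DMSO replicate 1 (limma adjusted p 0.0577). SLC25A32, the mitochondrial folate carrier, was 32.7 TPM in both DMSO libraries and 28.8 and 31.3 TPM with JG342, and missed the threshold (log2 difference −0.12, limma adjusted p 0.486), unlike the 4 mitochondrial enzymes.

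Of the enzymes that use or interconvert folates elsewhere, 9 of 10 listed were in the table, 8 were fitted, and only TYMS passed. TYMS, the thymidylate synthase, which consumes methylene-tetrahydrofolate, stood at 356 and 386 TPM with DMSO and at 217 and 242 TPM with JG342. It fell by 0.69 on the log2 scale (limma adjusted p 0.00276). GART and ATIC, which use 10-formyltetrahydrofolate in purine synthesis, differed by −0.15 and −0.22 and did not pass (limma adjusted p 0.444 and 0.166). MTFMT, which formylates the mitochondrial initiator tRNA, differed by 0.05 (limma adjusted p 0.792). The MTFMT sign was negative after median scaling.

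The glycine cleavage system, a mitochondrial complex that can supply methylene-tetrahydrofolate from glycine, was divided. AMT, its aminomethyltransferase, was 2.61 and 3.01 TPM with DMSO and 10.9 and 10.7 TPM with JG342. It rose by 1.64 ± 0.16 (SE; limma adjusted p 0.000441), and the libraries of each treatment were close. GLDC, the decarboxylase that starts the reaction, was 49.4 and 54.95 TPM with DMSO and 30.2 and 36.02 TPM with JG342 (log2 change −0.64, limma adjusted p 0.00985). GCSH, the lipoyl carrier protein, was 20.1 and 22.9 TPM with DMSO and 14.1 and 12.3 TPM with JG342 (log2 change −0.67, limma adjusted p 0.0125). Both falls lost the call without DMSO replicate 2 or with low genes kept in the fit, at limma adjusted p up to 0.0815 for GLDC and 0.105 for GCSH. DLD, a subunit shared with other dehydrogenase complexes, differed by −0.12 (limma adjusted p 0.502).

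Transport and use of serine and glycine gave 4 higher and 0 lower among 13 fitted of 16 listed, with a median log2 change of −0.09. SLC6A9, a glycine transporter, measured 4.13 and 14.6 TPM with DMSO and 100.4 and 99.8 TPM with JG342. As for PSAT1, the JG342 libraries nearly coincided and the DMSO libraries did not, and the log2 change was 3.50 ± 0.40 (SE; limma adjusted p 0.000981). It was 2.70 without DMSO replicate 1 and 4.30 without DMSO replicate 2. CBS, which joins serine to homocysteine, was 0.90 and 2.40 TPM with DMSO and 49.2 and 63.7 TPM with JG342, a log2 change of 4.49, or 5.15 with 0.1 added in place of 1. CBSL is a near-identical copy of CBS, so its value may hold reads of either gene. SDSL, a serine dehydratase-like protein, was 7.90 and 6.93 TPM with DMSO and 19.5 and 19.8 TPM with JG342 (log2 change 1.30, limma adjusted p 0.000731). SLC1A5, a transporter of neutral amino acids that include serine and glutamine, was 324 and 413 TPM with DMSO and 674 and 712 TPM with JG342 (log2 change 0.92, limma adjusted p 0.00202). SFXN1, the mitochondrial serine importer, differed the other way, at 87.96 and 103 TPM with DMSO and 76.3 and 76.1 TPM with JG342. It missed the threshold with a log2 difference of −0.32 (limma adjusted p 0.0750), and passed after median scaling.

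**Figure D4:**
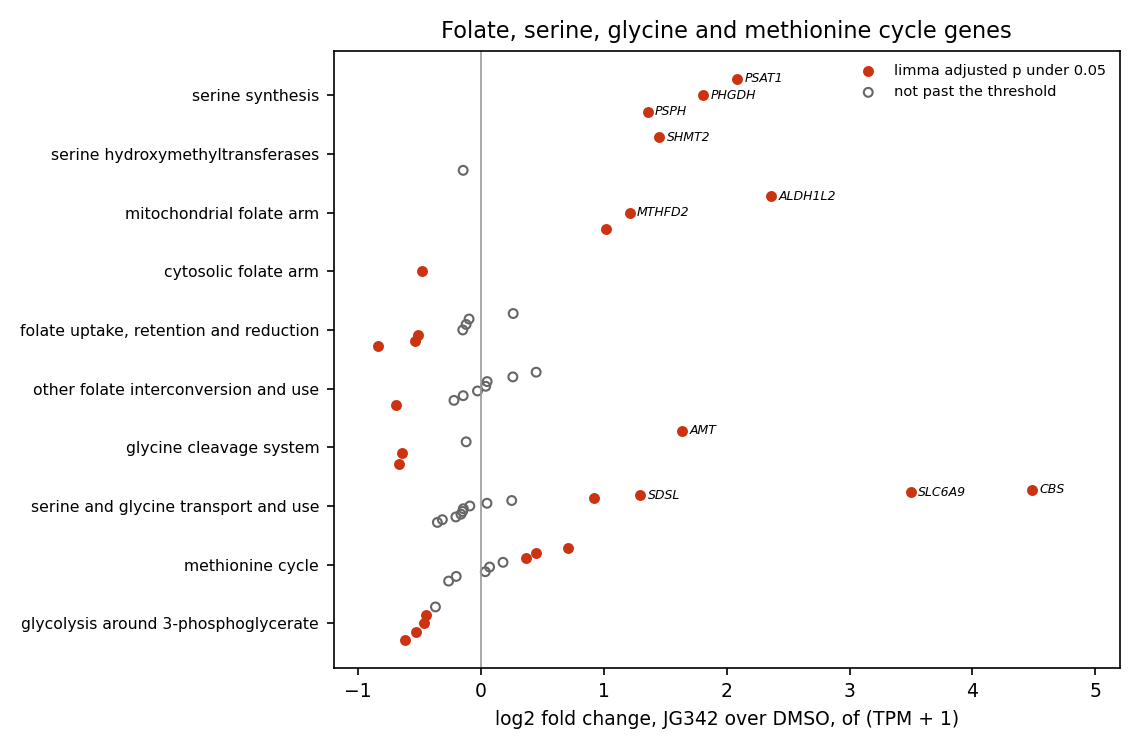
Log2 fold change of (TPM + 1), JG342 over DMSO, for each fitted gene of 10 lists, with filled red points for a limma adjusted p under 0.05 and open points for the rest. The points of serine synthesis and the mitochondrial folate arm all lie above 1, whereas those past the threshold among folate uptake and reduction, and around 3-phosphoglycerate, lie below 0.

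In the methionine cycle, which receives methyl groups from folate, 3 of 8 fitted genes passed as higher and 0 as lower. AHCYL1, a homolog of the S-adenosylhomocysteine hydrolase AHCY, was 21.4 and 22.0 TPM with DMSO and 34.8 and 37.1 TPM with JG342 (log2 change 0.70, limma adjusted p 0.00486). AHCYL2 and MTRR, the reductase that reactivates methionine synthase, rose by 0.45 and 0.37 (limma adjusted p 0.0257 and 0.0286). Both of these calls were lost when any of the 4 libraries was left out, and also without the mean-variance trend. They were lost too with low genes kept in the fit (limma adjusted p 0.0604 for AHCYL2 and 0.0584 for MTRR). The MTRR call was also lost after median scaling. Methionine synthase itself, MTR, was 14.8 and 17.98 TPM with DMSO and 19.9 and 17.4 TPM with JG342 and overlapped. MAT2A, which makes S-adenosylmethionine, and AHCY differed by −0.26 and −0.20 and did not pass (limma adjusted p 0.0715 and 0.156). For MAT2A and AHCY both JG342 libraries lay below both DMSO libraries, as they did for 28.2% of all fitted genes. MAT2A passed after median scaling.

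The glycolytic enzymes around 3-phosphoglycerate, the substrate of PHGDH, were lower where they passed. Of 5 listed, 4 passed as lower and 0 as higher, with a median log2 change of −0.47. PGK1, which forms 3-phosphoglycerate, was 546 and 604 TPM with DMSO and 452 and 394 TPM with JG342 (log2 change −0.45, limma adjusted p 0.0196). PGAM1, which competes with PHGDH for it, was 469 and 511 TPM with DMSO and 369 and 340 TPM with JG342 (log2 change −0.47, limma adjusted p 0.0115). ENO2 and GAPDH fell by 0.62 and 0.53 on the log2 scale (limma adjusted p 0.00304 and 0.00939), and ENO1 differed by −0.37 without passing (limma adjusted p 0.0800). The ENO2 call held under every alternative tried, whereas those of GAPDH, PGK1 and PGAM1 were each lost under at least the fit with low genes kept and the fit without DMSO replicate 2 (limma adjusted p up to 0.103, 0.153 and 0.106). The ratio of PHGDH to PGAM1 was not tested.

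Over the 5 lists of folate, serine, glycine and methionine cycle genes outside the 9 members, 44 of 49 genes were in the table, 40 were fitted, and 14 passed, 8 higher and 6 lower. Their share past the threshold was 35.0%, against 18.4% of all fitted genes, and their median log2 change was −0.09. These lists too were chosen with earlier results of these data known, so the share only describes them.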

How the data were processed

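RNA was sequenced from MM.1S cells treated with JG342 or DMSO. The authors deposited a table with 1 TPM value per gene and library, each gene given by symbol and RefSeq accession. The unit was inferred from the values, since the libraries sum to nearly equal totals. Per the submitters' processing notes the tools were HISAT2 2.0.4, Bowtie2 2.2.5 and RSEM 1.2.12; their settings, the genome build and the annotation are not given in the sources used here. TPM keeps no read depth, so no count model was applied.

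Genes averaging 1 TPM or more were transformed to log2(TPM + 1), which understates changes of low genes, and fitted with limma 3.58.1 in R 4.3.3 (eBayes with trend, treatment as the only term, two-sided). Isoenzyme log2 ratios were taken of (TPM + 1) and used the exact permutation test over the 4 libraries. On simulated data with 12042 genes for this comparison, the fit recovered 65% of genes changed by 0.5 on the log2 scale and 100% of those changed by 1, and 6.78% of its calls were false. In that simulation 100 genes were changed at each size and the libraries were drawn independently, so its false share need not hold here. The changed genes were drawn only from those whose mean log2(TPM + 1) corresponds to more than 5 TPM. Recovery of lower genes was therefore not measured. Alternatives changed the pseudocount, filter, scaling, variance trend, replicate block and libraries.

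The 9 members and all gene lists were chosen with earlier results of these data known. Named genes are the members, the genes of those lists (values of some are not reported here), and the 2 nearest profiles per member past the threshold; SLC4A5 and the CCAAT motif were added after values were seen. All 9 accessions carry the same symbol in RefSeq (GRCh38.p14), which also gave the promoter sequences. Printed stretches were kept outside GENCODE release 29 exons of the gene, except that of MTHFD1L. Similar transcripts were looked for in GENCODE with BLAST 2.17.0, at 95% identity over at least 20% of the transcript.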

Additional observations from a re-analysis of the deposited data

How the results depend on the processing

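All 9 members kept their direction under the 13 alternatives, except SHMT1, whose log2 change of −0.15 became 0.019 without JG342 replicate 1. With no filter on low values 828 genes passed in all (533 higher, 295 lower) in place of 2221, and 5 members passed, 4 of them higher. PHGDH (1.81, limma adjusted p 0.0550), MTHFD2 (1.21, 0.0566) and MTHFD1L (1.01, 0.0755) did not pass in that fit, although their fold changes are those of the reported fit; the cause was not tested. Without the mean-variance trend 526 genes passed as lower. With each library left out in turn, between 773 and 1905 genes passed, 581 to 1144 higher and 192 to 761 lower. Members past the threshold numbered 7 to 8, with 7 higher in each and 0 to 1 lower. Other listed genes past the threshold numbered 9 to 13, of which 3 to 6 were lower. MTHFD1 ran from −0.51 to −0.46 in those fits, SHMT1 from −0.31 to 0.019, ALDH1L2 from 1.79 to 2.93, and PSAT1 from 1.65 to 2.52. A fit that leaves 1 library in a treatment assumes that it varies like the others. Over the 8 alternatives run for them, the log2 differences between isoenzymes ran from 1.32 to 1.88 for SHMT2 against SHMT1, 1.37 to 2.01 for MTHFD2 against MTHFD1 and 1.21 to 1.78 for MTHFD1L against MTHFD1, with both ends from leaving out a DMSO library.

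The replicate numbers are shared by the treatments, and the description field gives libraries of 1 number a common prefix that the labels do not explain. Deviations of same-numbered libraries correlated across genes with an r of 0.27. With the replicate block 4207 genes passed (2316 higher, 1891 lower), and with the block and median scaling 3985 (2310 lower), with 11 lower among the other listed genes. The block changed no member's call. Among the listed genes ENO1 (limma adjusted p 5.78e-06), NFE2L2 (0.0039), ATIC (0.035), SFXN1 (0.0048), MAT2A (0.0061) and SLC1A4 (0.0088) passed with the block and not in the reported fit. The block fit had 1 residual degree of freedom and infinite prior degrees of freedom. Its p-values therefore do not use each gene's own spread and are not strong evidence for a single gene. In the simulated data 14.9% of the calls of the block fit were false. The simulated libraries were drawn without an effect shared by replicate number, so this share does not rate the block fit on these libraries. Depth is not recorded, so no limit from counting can be set for low genes such as ALDH1L1.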

Other observations

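MTHFS, which returns 5-formyltetrahydrofolate to the active pool, was 3.04 and 2.35 TPM in DMSO replicates 1 and 2, 1.86 TPM in JG342 replicate 1 and 7.81 TPM in JG342 replicate 2. Its log2 difference was 0.45 with all 4 libraries and did not pass. It was 1.26 and passed without JG342 replicate 1, and was −0.36 without JG342 replicate 2. BHMT, which methylates homocysteine from betaine and was left out of the test for its low level, was listed at 0 in both DMSO libraries and at 0.18 and 0.32 TPM in the JG342 libraries.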
